A study of Bos taurus with 48 samples.

Results

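The 6 genes described here are the milk protein genes of cattle: the 4 casein genes CSN1S1, CSN1S2, CSN2 and CSN3, and the whey protein genes LALBA and PAEP. They were chosen by identifier and are 6 of the 27607 gene rows in each count table. The pairing of identifiers with these symbols came with the choice of the genes: neither the count tables nor the RefSeq table used here pairs an Ensembl identifier with a symbol, so the pairing was not checked. The study sequenced RNA from mammary parenchyma, mammary fat pad and liver of dairy calves on 3 feeding levels. Calves on unlimited nutrition were offered milk replacer freely at 3 meals of 30 minutes a day, calves on restricted nutrition had a reduced daily ration of it, and control calves had a standard ration. Unlimited and restricted groups held 6 libraries in each tissue, and control groups held 3 libraries of parenchyma, 4 of fat pad and 4 of liver. The labels give no age or breed. They do not state that the libraries of a group come from different calves, and the p-values rest on the spread between libraries.

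Caseins are the phosphoproteins that form the micelles of milk. The products of CSN1S1, CSN2 and CSN1S2 are the calcium-sensitive caseins that fill the micelle, and that of CSN3, kappa-casein, coats its surface and keeps it in suspension. LALBA encodes alpha-lactalbumin, which turns a galactosyltransferase into lactose synthase, and PAEP encodes beta-lactoglobulin, a lipocalin and the major whey protein of ruminant milk. All 6 are textbook products of the secretory epithelium of the mammary gland, raised by prolactin through STAT5 in late pregnancy and lactation. Epithelium belongs to the parenchyma of the gland, while the fat pad is the adipose bed that it grows into. In the RefSeq annotation of the ARS-UCD2.0 assembly the 4 casein genes are neighbours in a stretch of 8 protein-coding genes from CSN1S1 to CSN3, and LALBA and PAEP lie apart from them.

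Reads in genes totalled 5.59 to 24.2 M per library (M, the metric prefix mega), with a median of 13.8 M. The libraries labelled fat pad control stood apart from the remaining libraries labelled fat pad. On a scale over 17900 genes that runs from the mean of unlimited and restricted parenchyma at 0 to the mean of unlimited and restricted fat pad at 1, the 12 fat pad libraries of the unlimited and restricted diets lay between 0.808 and 1.09 and the 15 parenchyma libraries between -0.0207 and 0.0747. Fat pad control libraries 1, 2, 21 and 18 lay at -0.0311, 0.0279, 0.123 and 0.537, and the titles of libraries 1 and 2 carry the abbreviation that the series title gives to parenchyma. The sample labelled parenchyma control 2, not analysed here, has the abbreviation PAD in its title. The other fat pad titles carry the code PPP, except PP in unlimited library 3 and PPT in unlimited library 6 and restricted library 5. Titles of the analysed parenchyma libraries carry TP, except PTP in restricted library 4. Labelled tissues could not be checked against marker genes, because no table used here names the identifiers. Tissues are therefore given as labelled.

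In these calves 5 of the 6 milk protein genes were at or near 0 in every library, and the remaining one, ENSBTAG00000039787 (CSN3), had over 200 reads in each library labelled fat pad of the unlimited and restricted diets and next to none elsewhere. Its level there averaged 50.1 ± 32.4 CPM (reads per M reads in genes) on the unlimited diet and 61.7 ± 29.9 CPM on the restricted diet (SD, n = 6 each). The 4 libraries labelled fat pad control had 0 reads of it, as did all 16 liver libraries and 13 of 15 parenchyma libraries. The row named for a casein thus lay in libraries labelled as adipose bed and not in libraries labelled parenchyma, where the epithelium belongs. Whether the pairing of identifier and symbol, the tissue labels or neither accounts for this was not tested. In tissue RNA, fewer cells of a type and less RNA per cell cannot be told apart.

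**Figure D1:**
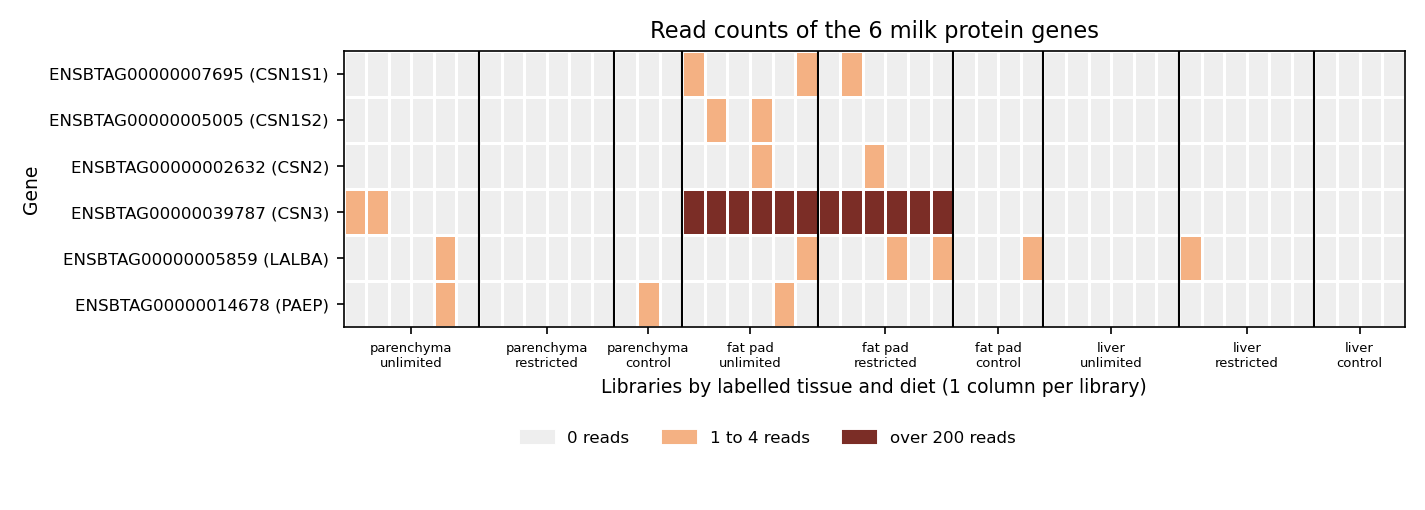
Read counts of the 6 milk protein genes (rows) in each of the 47 libraries (columns, grouped by labelled tissue and diet), shown as 0, 1 to 4 or over 200 reads. ENSBTAG00000039787 (CSN3) exceeds 200 reads in the 12 unlimited and restricted libraries labelled fat pad and reaches at most 4 reads in the other 35, and no other member exceeds 4 reads in any library.

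The calcium-sensitive casein genes were met in 6 or fewer reads each over all 47 libraries, and those reads lay in libraries labelled fat pad. ENSBTAG00000007695 (CSN1S1) had 2 reads each in fat pad unlimited libraries 3 and 15 and in fat pad restricted library 5, and 0 in the other 44 libraries. ENSBTAG00000005005 (CSN1S2) had 2 reads in fat pad unlimited library 6 and 1 in fat pad unlimited library 9. ENSBTAG00000002632 (CSN2), the gene of beta-casein, had 2 reads in fat pad unlimited library 9 and 1 in fat pad restricted library 8. In the 15 parenchyma libraries together, with 204 M reads in genes, each of these 3 genes had 0 reads, which allows a level of up to 0.0147 CPM for counting error (3 reads over the group).

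The whey protein genes were as low, and their few reads were not limited to a single tissue. ENSBTAG00000005859 (LALBA) had 12 reads in 6 libraries: 2 in parenchyma unlimited library 11, 2 in fat pad unlimited library 15, 2 and 1 in fat pad restricted libraries 10 and 16, 2 in fat pad control library 21 and 3 in liver restricted library 4. ENSBTAG00000014678 (PAEP) had 10 reads in 3 libraries, with 4 in parenchyma unlimited library 11, 4 in parenchyma control library 19 and 2 in fat pad unlimited library 11. Number 11 of the unlimited diet thus held PAEP reads in both mammary tissues and LALBA reads in parenchyma. Apart from CSN3, at least 1 read of a member was found in 9 of the 12 fat pad libraries of the unlimited and restricted diets, against 4 of the other 35 libraries, with 19 and 15 such reads in 176 and 467 M reads in genes.

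Counts this low carry little information. Of the 235 values of these 5 genes, 16 were above 0: 3 were 1 read, 10 were 2 reads, 1 was 3 reads and 2 were 4 reads. In 45 of the 47 libraries more genes had exactly 2 reads than exactly 1, by a factor of 1.29 to 1.90, while the limits given for counts of 0 assume that reads are counted independently. How mates of a read pair were counted is not given in the sources used here. The exceptions were liver control library 1, with 797 genes at 2 reads and 1405 at 1, and fat pad control library 1, with 895 and 1456. Totals as low as theirs were common: 20.4% of all gene rows had no more than 12 reads over the 47 libraries, and 2972 rows had 0. None of the 5 genes passed the filter on low counts in any comparison, so edgeR did not test them. With DESeq2 and with no filter, those of the 5 with reads in the groups compared were fitted, and none was called. At so few reads the lack of a call is little evidence.

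ENSBTAG00000039787 (CSN3), the gene of kappa-casein, was the exception. In fat pad of the unlimited diet it was at 49.9, 102, 36.6, 22.1, 17.2 and 72.7 CPM in libraries 3, 6, 7, 9, 11 and 15. In fat pad of the restricted diet it was at 97.6, 70.5, 48.2, 93.0, 30.0 and 31.0 CPM in libraries 4, 5, 8, 10, 13 and 16. The 2 diets overlapped over most of their range, and library 6 of the unlimited diet was the highest and library 11 the lowest of the 12. These levels rest on 229 to 1552 reads per library, and the highest was 5.92 times the lowest, a coefficient of variation of 54.3% over the 12 libraries.

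**Figure D2:**
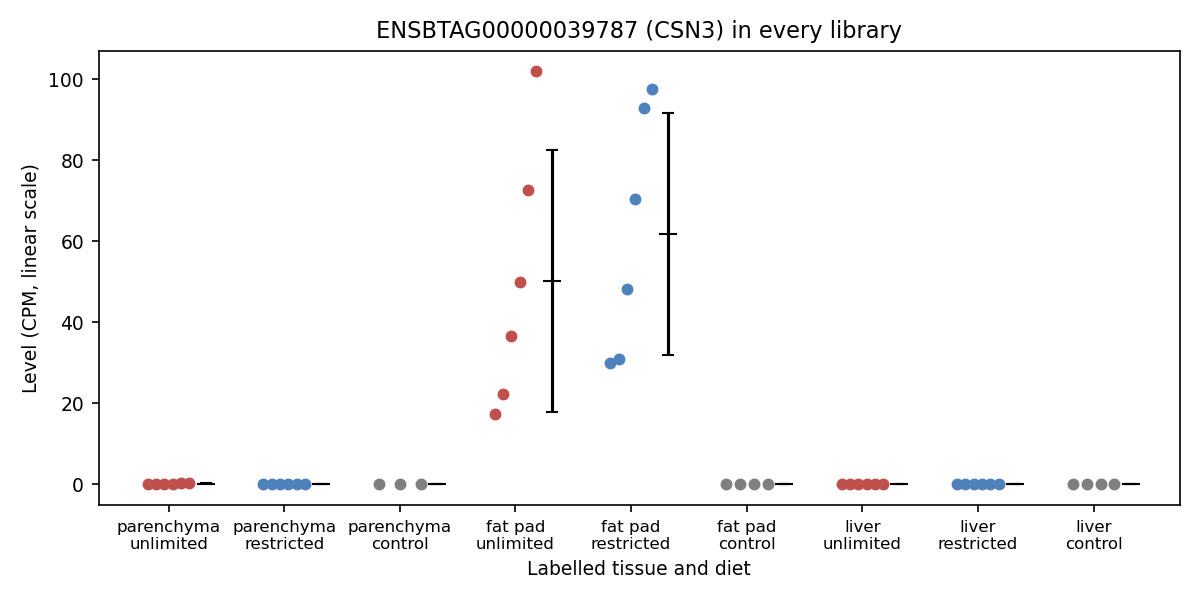
Level of ENSBTAG00000039787 (CSN3) in CPM (linear axis) in each library, by labelled tissue and diet. Points are libraries and bars at their right are the mean ± SD of the group: unlimited and restricted fat pad lie between 17.2 and 102 CPM with overlapping ranges, and the highest library of any other group is at 0.324 CPM.

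The unlimited diet was set against the restricted diet in each tissue. In fat pad the log2 fold change of ENSBTAG00000039787 (CSN3), unlimited over restricted, was -0.28 ± 0.43 (SE, 95% interval -1.21 to 0.65, edgeR quasi-likelihood test with Benjamini-Hochberg adjusted p = 0.883, unadjusted p = 0.522). An exact two-sided permutation test of the difference in mean CPM, -11.6, gave p = 0.517, where 6 against 6 libraries can go down to 0.00217. The difference was smaller than the spread between libraries, and its interval is too wide to show that the diets act alike. The call was negative for every gene of this comparison: edgeR called 0 of 15203 genes, a background of 0%, with 1316 at an unadjusted p under 0.05, 2 genes were called by DESeq2 and 0 by limma voom. In parenchyma ENSBTAG00000039787 had 2 and 4 reads in unlimited libraries 3 and 6, 0 in the other 4 unlimited libraries and 0 in all 6 restricted libraries, and was not tested. In liver it had 0 reads on both diets.

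No member passed the filter on low counts in 8 of the 14 comparisons, so the count of members called is 0 there by construction. In parenchyma, edgeR called 12.6% of all genes tested for unlimited over restricted, 0.329% for restricted over control and 12.4% for unlimited over control. In liver the shares were 0.0143%, 0.85% and 0.482% for the same comparisons. Parenchyma over liver, with 75.5% of genes called, and its interaction with the unlimited over restricted diets, with 7.41%, held no tested member either.

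The difference of the diet effect between parenchyma and fat pad was tested for the same gene as an interaction. It was not called, with 0.778% of 16077 genes called. The gene passed the filter through fat pad alone, and parenchyma, with 0 reads on the restricted and 6 on the unlimited diet, held too few reads for a diet effect of its own, so this test carries no information.

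Against control calves, ENSBTAG00000039787 (CSN3) was called higher in both other groups labelled fat pad. The gene passed the filter on low counts through those groups alone, so the calls add no support beyond the read counts. In unlimited fat pad its level was 17.2 to 102 CPM, against 0 in each of the 4 control libraries, at least 984-fold higher (edgeR adjusted p = 0.000398). In restricted fat pad it was 30.0 to 97.6 CPM, against the same 4 control libraries at 0, at least 1294-fold higher (edgeR adjusted p = 9.35e-05). Both folds are lower limits, taken against 3 reads over the control group. The background was high in these 2 comparisons, which share their control libraries: 13.8% of 15441 genes were called higher in the unlimited and 12.6% of 15712 in the restricted diet. Without the 2 libraries whose titles carry the parenchyma abbreviation, edgeR adjusted p was 0.00284 for unlimited and 0.000999 for restricted fat pad. The control libraries left, 21 and 18, lay at 0.123 and 0.537 on the position scale, outside the 0.808 to 1.09 of the other diets. Whether diet or the tissue sampled accounts for the difference from control was not tested. At the lowest level of the 12 libraries, 17.2 CPM, fat pad control libraries 1, 2, 18 and 21 would have held 101.1, 250.3, 302.5 and 416.5 reads.

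Fat pad control library 18 lay about midway between the tissues over all genes, at 0.537, and still had 0 reads of ENSBTAG00000039787 (CSN3). Other genes that set the 2 tissues apart sharply were low in it as well. Of 31 genes with at least 20 CPM in each of the 12 fat pad libraries of the unlimited and restricted diets and at most 1 CPM in each of the 12 parenchyma libraries of the same diets, 24 were at 1 CPM or less in library 18, and the highest was at 17.1 CPM. In fat pad control libraries 1, 2 and 21, 31, 30 and 27 of the 31 were at 1 CPM or less. ENSBTAG00000039787 itself is not among these 31 genes, since library 11 of unlimited fat pad had only 17.2 CPM of it. These limits were chosen after the data were seen.

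Between tissues, ENSBTAG00000039787 (CSN3) was lower in parenchyma than in fat pad in calves of the unlimited and restricted diets. It passed the filter on low counts through fat pad alone, here and against liver, so the calls add no support beyond the read counts. Control libraries labelled parenchyma, fat pad and liver were all at 0. With them included the gene was not called (edgeR adjusted p = 0.9999 for parenchyma over fat pad and for fat pad over liver). That fit averages in a difference between groups at 0, which has no defined fold change, so its p-value is not informative. In the 12 parenchyma libraries of the unlimited and restricted diets it had 6 reads in all, in unlimited libraries 3 and 6 at 0.189 and 0.324 CPM, against 9670 reads in the 12 fat pad libraries (edgeR adjusted p = 1.65e-11). Pooled over the libraries, the fat pad level was 1468 times the parenchyma level, with a 95% counting interval of 674 to 4000. This ratio rests on 6 parenchyma reads: without number 6 it was 3845 (1064 to 3.175e+04) and without number 3 it was 2079, while without any other number it was 1261 to 1424. The interval assumes independent reads, as above. This call is one of many, since 34.5% of 16077 genes were called lower in parenchyma. On the restricted diet alone parenchyma had 0 reads, and fat pad was at least 1445-fold higher. Fat pad was also at least 2986-fold higher than liver, which had 0 reads in its 12 libraries of these diets (edgeR adjusted p = 4.35e-10), where 41.1% of 16228 genes were called higher in fat pad.

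Over the 9 groups the order of ENSBTAG00000039787 (CSN3) was thus restricted fat pad and unlimited fat pad first, with overlapping ranges, and then unlimited parenchyma at 0.0855 ± 0.139 CPM (SD, n = 6). The other 6 groups were at 0. Unlimited parenchyma overlapped them, since 4 of its 6 libraries were at 0 too. With 3 reads over a group as the limit, the groups at 0 allow a level of 0.0340 to 0.0788 CPM at most, so no order among them was detectable at this depth.

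Within the 12 fat pad libraries of the unlimited and restricted diets, the level of ENSBTAG00000039787 (CSN3) tended to be higher in the libraries that lay farther from parenchyma over all genes. The 3 libraries above 90 CPM, unlimited 6 and restricted 4 and 10, lay at 1.07, 1.07 and 1.09, and the lowest, unlimited 11, lay at 0.808. Not every library followed: restricted 5, at 70.5 CPM, had the second lowest position, 0.914, and unlimited 9, at 22.1 CPM, lay at 0.997. Log2 CPM rose with position with a Pearson r of 0.76 (permutation p = 0.00332, adjusted p = 0.00996 over 3 library measures) and a Spearman rho of 0.76 (permutation p = 0.00564, adjusted p = 0.0169). Without the 2 libraries farthest from the median position r was 0.57 (n = 10, permutation p = 0.0909), so the relation rests in part on those libraries. Within the unlimited and the restricted diet r was 0.83 and 0.62 over 6 libraries each. Position was computed without the 6 milk protein genes, but it runs along the difference between fat pad and parenchyma, so a gene high in fat pad is not independent of it. As a description, on log2 CPM with a prior count of 2, 0.46% of 17805 other genes had an r as high as that of ENSBTAG00000039787, 0.75. Among 604 other genes at least 8-fold higher in fat pad the share was 3.48%, and their median r was 0.29. Neither total counts, with r = -0.11, nor the share of uniquely placed reads assigned to genes, with r = -0.12, showed such a relation (permutation p = 0.741 and 0.719).

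**Figure D3:**
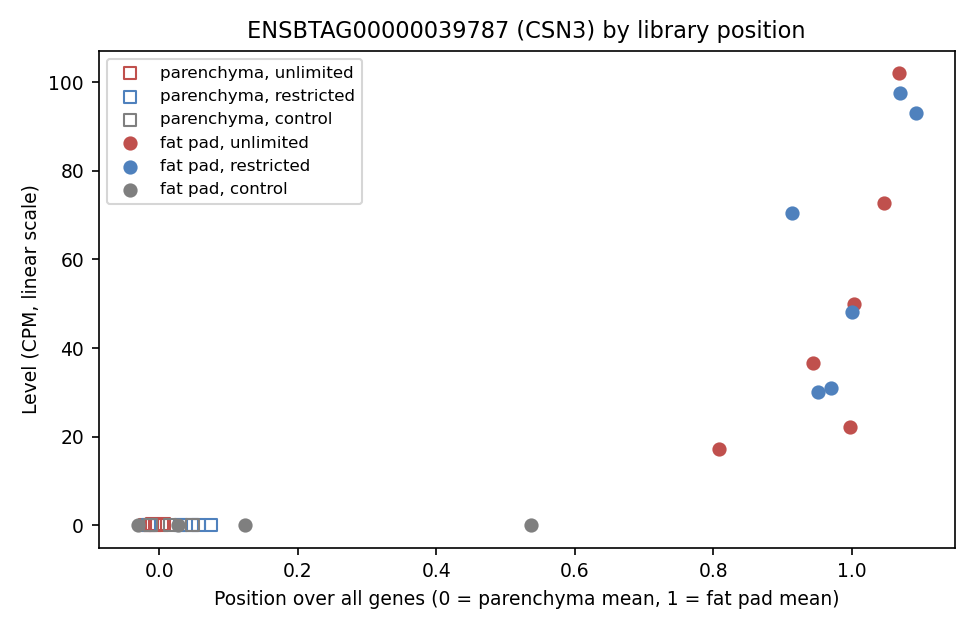
Level of ENSBTAG00000039787 (CSN3) in CPM (linear axis) against position over all genes, for the 31 mammary libraries, with fat pad as filled circles, parenchyma as open squares and diets by colour. The 12 fat pad libraries of the unlimited and restricted diets lie at 0.808 to 1.09 and tend to rise with position, while fat pad control library 18 lies at 0.537 with 0 reads.

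Few genes followed ENSBTAG00000039787 (CSN3) closely from library to library. Over the 12 fat pad libraries, as deviations of log2 CPM from the diet means, ENSBTAG00000004588 and ENSBTAG00000015810 were most like it, with r of 0.93 and 0.92 among 17805 genes compared, whose median r was -0.03. These were also the only 2 genes at 0.9 or more. At the opposite end ENSBTAG00000018946 and ENSBTAG00000010407 had r of -0.90 and -0.89. All are extremes picked from 17805 genes over 12 libraries, and whether they exceed what unrelated genes would give was not tested. ENSBTAG00000004588 averaged 11.1 ± 4.83 CPM in unlimited and 12.3 ± 5.61 CPM in restricted fat pad (SD, n = 6 each), against 1.59 ± 2.97 CPM in fat pad control (n = 4). ENSBTAG00000015810 was near the limit of detection, at 0.587 ± 0.602 CPM in unlimited and 1.34 ± 1.30 CPM in restricted fat pad (n = 6 each). Over all 47 libraries 198 of 17900 genes reached an r of 0.9, where all points share the step between the 12 fat pad libraries and the rest.

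How many genes shared the step depends on the limits set, and a limit on reads leaves out less abundant genes. ENSBTAG00000051436, for example, averaged 4.49 and 4.83 CPM in unlimited and restricted fat pad. It was at 0 in fat pad control, in parenchyma of the unlimited and restricted diets and in liver. With at least 100 reads in each of the 12 fat pad libraries of the unlimited and restricted diets and at most 10 in each of the other 35 libraries, 13 of 27607 genes qualified, ENSBTAG00000039787 (CSN3) among them. Its 2 nonzero values outside the 12 libraries were the 2 and 4 reads of parenchyma unlimited libraries 3 and 6, and 33 of the 35 libraries were at 0. These limits, too, were chosen after the data were seen, and none of the other 12 genes is named in the sources used here.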

How the data were processed

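RNA was depleted of ribosomal RNA and sequenced in paired reads of 150 cycles, per the labels' protocols. The deposited tables hold whole read counts for 27607 Ensembl identifiers and 5 summary entries. STAR 2.7.8, HTSeq 1.99.2, FastQC, DESeq2 and the build ARS-UCD1.2 are named, without roles, per the submitters' processing notes. The sources used here do not give the settings for strand, mates and multi-reads. Counts of 47 of the 48 labelled samples entered, and parenchyma control number 2 was not analysed here. Tissue and diet fields set the groups.

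Summary entries stayed out of library sizes. Reads outside annotated genes were 49.2% to 67.5%, ambiguous reads 0.206% to 0.587% and reads placed more than once 5.74% to 14.9% of all entries other than unaligned reads. CPM is the count over the sum of gene rows, per M (mega). Counts were tested with edgeR 4.0.16 in R 4.3.3 (TMM, filterByExpr with a minimum count of 10 and minimum total of 15, robust quasi-likelihood F test, Benjamini-Hochberg adjustment over all genes tested, called under 0.05), on the 2 groups compared, or on the unlimited and restricted libraries of 2 tissues. The tests were checked on simulated data, with moderate folds in genes read in both groups. Groups at 0, and a spread as wide as that of ENSBTAG00000039787 (CSN3), were not simulated. Alternatives used DESeq2 1.42.0, limma 3.58.1 and other settings, with their effect given at the end. A count of 0 is given a limit of 3 counts, and intervals of pooled read ratios are exact at 95%. Both cover counting error only. The 95% interval of a log2 fold change comes from the edgeR fit and includes the spread between libraries. Position used log2 CPM with a prior count of 2 and left the library itself out of the means. Permutation tests of correlations used 100000 resamples.

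The 6 genes and all lists were chosen with earlier results of these data known. All 6 are described in every comparison. The rule for the genes most like them, the 2 of highest r over unlimited and restricted parenchyma, could not be used because no member passed the filter there, and it was moved to fat pad after the data were seen. For the same reason correlations between members, and of a member between parenchyma and fat pad, were not computed. The 12 marker and pathway lists by symbol could not be used, since 0 identifiers matched the RefSeq table. Levels were not compared between genes, for want of transcript lengths.

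Samples of different tissues share title numbers, which the labels do not tie to a calf.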

Additional observations from a re-analysis of the deposited data

Results flagged for a closer look

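A library stood far from the rest of its group in 10 of the 15 groups of 4 to 10 libraries in which a member gene was not constant. The rule, the gap to the next value over the range, flags every group with reads in 1 library only. The nominal rate of about 1 in 20 therefore does not apply, and the share is no excess over chance. All 10 flagged values were 1 to 4 reads in a group whose other libraries had 0 reads or at most 1. ENSBTAG00000007695 (CSN1S1) was at 0.139 CPM in fat pad restricted library 5, and ENSBTAG00000005005 (CSN1S2) at 0.192 CPM in fat pad unlimited library 6. ENSBTAG00000002632 (CSN2) was at 0.122 CPM in fat pad unlimited library 9 and 0.0624 CPM in fat pad restricted library 8. ENSBTAG00000005859 (LALBA) was at 0.120 CPM in parenchyma unlimited library 11, 0.137 CPM in fat pad unlimited library 15, 0.0828 CPM in fat pad control library 21 and 0.215 CPM in liver restricted library 4. ENSBTAG00000014678 (PAEP) was at 0.241 CPM in parenchyma unlimited library 11 and 0.151 CPM in fat pad unlimited library 11. No library was flagged for ENSBTAG00000039787 (CSN3).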

How the results depend on the processing

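The number of milk protein genes called kept its value under the alternatives run in 12 of 14 comparisons. In 8 of these 12 no member passed the filter in the main fit, so their count of 0 says nothing about stability. In the 2 comparisons of fat pad with control, ENSBTAG00000039787 (CSN3) passed the filter only through the groups where it was high. Their unchanged calls add no support beyond the read counts. The interaction of parenchyma and fat pad carried no information, as above. For unlimited over restricted fat pad the main fit called 0 genes of any kind. Alternatives included another normalization, DESeq2, limma voom, no filter on low counts and all 9 groups in 1 fit. They also included the assigned share as a covariate and each library left out. The count moved in parenchyma over fat pad and fat pad over liver with the control libraries included. It was 0 in both against 1 without them. The log2 fold change of ENSBTAG00000039787 (CSN3) was then -7.19 and 8.16 (edgeR adjusted p = 0.9999 for both). In control libraries this gene was at 0 in all 3 tissues, and a difference between groups at 0 has no defined fold change. The p-values with control libraries included are therefore not informative. For unlimited over restricted fat pad its log2 fold change ranged from -0.60 to -0.11 and its adjusted p from 0.781 to 1. Against control the adjusted p ranged from 9.26e-25 to 0.00208 for restricted and from 5.29e-22 to 0.0305 for unlimited fat pad, and fitted fold changes against groups at 0 depend on the prior count. With the title number as a replicate block the adjusted p was 5.09e-10 for parenchyma over fat pad and 2.96e-07 for fat pad over liver, at log2 fold changes of -10.79 and 12.27, and no call changed. The gene passed the filter through fat pad alone in these fits too, so the calls add no support beyond the read counts. Same-numbered libraries were not taken as pairs, since the labels do not tie a number to a calf. Deviations of parenchyma and fat pad correlated at over 0.1 in 7 of 12 numbers. Those of parenchyma and liver did so in 4 of 12 and those of fat pad and liver in 2 of 12. Libraries of different numbers were not correlated, so these counts do not decide whether numbers are pairs. On TMM-scaled library sizes ENSBTAG00000039787 was at 38.6 ± 23.8 CPM in unlimited and 46.3 ± 22.1 CPM in restricted fat pad (SD, n = 6 each). Depth limits the other 5 genes, which passed no filter. With DESeq2 and with no filter they were fitted only where the groups compared held reads of them, and none was called.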
